A study of Mus musculus with 32 samples.

Results

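The genes described here encode the 4 respiratory chain complexes and ATP synthase, the machinery of oxidative phosphorylation. They were chosen by gene symbol, with earlier results of these data known. Nuclear members had symbols beginning with Ndufa, Ndufb, Ndufc, Ndufs, Ndufv, Uqcr, Cox4 to Cox8 or Atp5, or were Sdha, Sdhb, Sdhc, Sdhd or Cyc1. Symbols beginning with mt-Nd, mt-Co, mt-Atp or mt-Cytb gave the mitochondrially encoded members. Pseudogene symbols (6) and assembly factors of the Ndufaf series (7) were dropped. This left 99 of the 54087 genes listed, 86 of them nuclear and 13 mitochondrially encoded. By symbol, 36 nuclear members belonged to complex I, 4 to complex II, 9 to complex III, 20 to complex IV and 17 to ATP synthase. Ndufa4 and Ndufa4l2 were counted with complex IV, where Ndufa4 is now placed. Atp5sl, filed here under ATP synthase, is named Dmac2 in GENCODE M21 and is known as an assembly factor of complex I.

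In oxidative phosphorylation, complexes I and II take electrons from NADH and succinate, complex III passes them to cytochrome c, and complex IV hands them to oxygen. Complexes I, III and IV pump protons across the inner mitochondrial membrane, and ATP synthase uses the gradient to make ATP. Most subunits are encoded in the nucleus and imported. A small core is encoded in mitochondrial DNA, whose strands are each transcribed as long precursors that are then cut into single mRNAs, so complexes I, III, IV and ATP synthase need products of both genomes. Regulatory T cells, which restrain immune responses, are known to rely on mitochondrial respiration, and T-cell activation is known to raise mitochondrial biogenesis.

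The study profiled GFP-positive regulatory T cells of Foxp3-IRES-GFP knock-in mice, on the C57BL/6 background and 2.5 months old, by RNA-seq of 32 libraries in 11 groups. The resting group (3 libraries) was not cultured. All other groups were kept for 18 h or 36 h on coated antibodies against CD3 and CD28 together with 10 ng/ml of mouse IL-2. The control groups (3 libraries at each time) had no further addition, and the remaining groups received an agonist of a receptor of the TNF receptor superfamily. These were TNC-sc(mu)TNF80 (STAR2), a TNFR2 agonist, at 12 ng/ml; antibody 3H3 against 4-1BB at 10 µg/ml; TL1A, the ligand of DR3, at 12 ng/ml; and OX40L at 100 ng/ml. Each agonist had 3 libraries per time except OX40 at 18 h, which had 2. Agonist doses differed, so the agonists were not ranked. The labels do not say whether replicates were separate mice or cultures, and p-values therefore measure only the spread between these libraries.

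Total expected counts ranged from 11880272 to 38083922 per library. All 10 regulatory T cell markers looked at, Foxp3 among them, were detected in every group. B-cell markers (12 of 12 detected in the resting and control groups) gave summed levels of 738 to 779 CPM at rest. The control libraries had 300 to 323 CPM at 18 h and 272 to 286 CPM at 36 h. A transcript of the ribosomal RNA locus exceeded 10000 CPM in 6 libraries, among them control 18 h replicates 1 and 2, at 10089 and 26286 CPM. What these features contributed to the differences below was not tested. Counts and ratios that move without the 6 libraries are given both ways, as are some of the single-gene calls.

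Of the 13 mitochondrially encoded genes, only 7 were well counted. mt-Nd1, mt-Nd2, mt-Co1, mt-Nd4, mt-Nd5, mt-Nd6 and mt-Cytb had more than 100 expected counts in every library, with mt-Co1 between 66251 and 279371. mt-Co2, mt-Co3, mt-Atp6, mt-Atp8, mt-Nd3 and mt-Nd4l never exceeded 33. mt-Co2 and mt-Co3 encode catalytic-core subunits of complex IV that every respiring cell makes, so a count near 0 is not read here as absence of the mRNA. Of these 6 genes, 5 have an annotated copy on chromosome 1 in mm10, identical over the aligned bases, which cover 98.3% to 99.9% of each gene. These copies, Gm28661 (mt-Co2, chr1:24614885-24615565), Gm10925 (mt-Atp6, chr1:24613974-24614651), Gm28437 (mt-Co3, chr1:24613189-24613971), Gm28438 (mt-Nd3, chr1:24612775-24613119) and Gm10222 (mt-Nd4l, chr1:24612407-24612700), lie on the minus strand. They held few counts too, at most 31 in any library. No annotated copy was found for mt-Atp8, but the unannotated interval between Gm10925 and Gm28661 was not compared with it. mt-Nd4 was matched over 63.6% of its length by Gm28439 without a difference, and mt-Co1 over 31.3% by Gm29216 with 1 differing base. Of the 50-base words of mt-Co1, 51.1% also occur in other annotated genes, 3 in number, and for mt-Nd4 the share is 62.2%, which makes the levels of both uncertain. How reads that fit both places were treated is not given in the sources used here, and its part in the missing counts was not tested.

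The starts of mt-Co2 and of its copy, and the start of the stretch that mt-Co1 shares with its copy, are shown so that the pairs can be compared base by base. Capitals mark the differing base, A1066T, counted from the first base of mt-Co1 with its base given first; the mt-Co2 pair has none. Sequences are from GENCODE M21 transcripts on mm10.
mt-Co2 (chrM:7013-7102, plus strand): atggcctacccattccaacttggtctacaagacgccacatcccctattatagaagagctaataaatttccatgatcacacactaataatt
Gm28661 (chr1:24615476-24615565, minus strand): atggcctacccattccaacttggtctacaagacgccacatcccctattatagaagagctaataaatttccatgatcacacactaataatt
mt-Co1 (chrM:6390-6479, plus strand): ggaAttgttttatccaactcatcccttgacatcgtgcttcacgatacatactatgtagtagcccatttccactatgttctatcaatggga
Gm29216 (chr1:24616099-24616188, minus strand): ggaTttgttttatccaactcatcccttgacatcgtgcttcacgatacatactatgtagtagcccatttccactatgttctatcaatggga

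**Figure D1:**
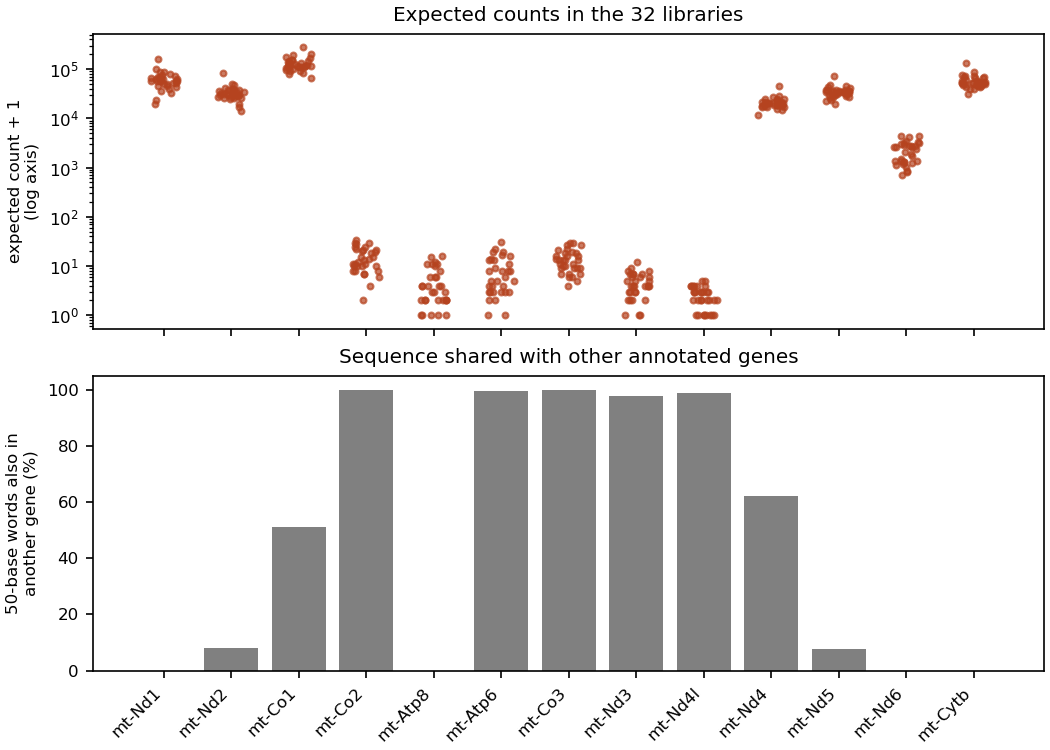
Expected counts plus 1 of the 13 mitochondrially encoded genes in all 32 libraries on a log axis (top; 1 point per library, genes in the order of the mitochondrial genome), and the share of each gene's 50-base words that also occur in another annotated gene (bottom). The 6 genes with at most 33 counts include the 5 with 98.0% to 100% shared words. mt-Atp8 is low without words shared with another annotated gene, and unannotated sequence was not searched.

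Promoters of nuclear members were looked at in RefSeq windows from 250 bases before to 50 after the gene start (GRCm38.p6, the assembly of mm10); 68 of the 86 had one. The palindrome bound by NRF1, nuclear respiratory factor 1, a known regulator of respiratory genes, is in capitals in the Atp5k promoter printed below and was searched as those letters. It was found on either strand in 5 of the 68 (7.35%) and in 1.07% of all 27025 genes. Those members were Atp5g2, Atp5k, Cox6a1, Ndufa11 and Uqcrc1. The ETS core CCGGAAG, which GABP and related factors bind, was found in 16 (23.5%, against 9.93% of all genes). The motif of YY1, another factor known for respiratory genes, was found in 5 (7.35%, against 0.755%), which were Atp5sl, Ndufa9, Ndufs4, Ndufs6 and Ndufs7. The GC box GGGCGG (39.7% against 38.2%), the E-box CACGTG that MYC can bind (8.82% against 8.09%) and CCAAT (44.1% against 41.1%) occurred at shares near those of all genes. Of tested members with the NRF1 motif 5 of 5 were higher at 18 h than at rest, and 50 of 61 without it, but the median log2 fold change was 0.75 with the motif and 0.85 without it. For the ETS core the counts were 15 of 16 and 40 of 50, and the medians 0.72 and 0.86. A match describes these letters only and says nothing of binding.

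The stretches before the gene start are shown for promoters with these motifs, because NRF1 and GABP are the factors known for respiratory genes; capitals mark NRF1 motifs in Atp5g2, Atp5k and Ndufa11, an NRF1 and then an ETS motif in Cox6a1, and ETS motifs in Sdhd and Uqcr11, and each ends at the base before the start.
Atp5g2 (chr15:102671048-102671127, minus strand): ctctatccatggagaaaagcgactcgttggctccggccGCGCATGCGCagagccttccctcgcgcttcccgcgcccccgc
Atp5k (chr5:108434400-108434479, minus strand): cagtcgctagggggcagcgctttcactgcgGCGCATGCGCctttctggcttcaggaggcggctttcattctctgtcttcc
Ndufa11 (chr17:56717682-56717761, plus strand): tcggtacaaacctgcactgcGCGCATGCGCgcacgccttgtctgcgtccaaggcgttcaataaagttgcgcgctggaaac
Cox6a1 (chr5:115348959-115349138, minus strand): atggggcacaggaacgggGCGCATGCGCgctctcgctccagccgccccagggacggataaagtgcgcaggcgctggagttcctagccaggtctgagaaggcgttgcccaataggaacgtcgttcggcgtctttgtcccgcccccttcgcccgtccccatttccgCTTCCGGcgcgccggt
Sdhd (chr9:50603850-50603949, minus strand): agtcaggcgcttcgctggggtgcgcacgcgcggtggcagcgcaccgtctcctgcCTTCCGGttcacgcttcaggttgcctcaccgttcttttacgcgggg
Uqcr11 (chr10:80406822-80406921, minus strand): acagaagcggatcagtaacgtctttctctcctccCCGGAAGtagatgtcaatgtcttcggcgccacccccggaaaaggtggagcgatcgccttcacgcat

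Cultured regulatory T cells had more nuclear respiratory mRNA and a different mix of mitochondrial mRNA than resting ones. Of the 86 nuclear members, 80 passed the filter on low counts. At 18 h, 68 of these 80 (85.0%) were higher than at rest by edgeR's quasi-likelihood test at an adjusted p below 0.05, while 40.9% of all 14313 genes tested were higher. Only 5 (6.25%) were lower, where 40.1% of all genes were. The median log2 fold change was 0.85 over the 80, and -0.01 over all genes tested. At 36 h, 71 were higher and 3 lower (42.4% and 42.1% of all genes), with a median of 0.90. The 6 nuclear members that were not tested (Cox4i2, Cox6a2, Cox7b2, Cox8b, Cox8c and Ndufa4l2) had at most 2 counts in any library. In bulk samples, a change in the mix of cells and a change of RNA within cells cannot be told apart.

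**Figure D2:**
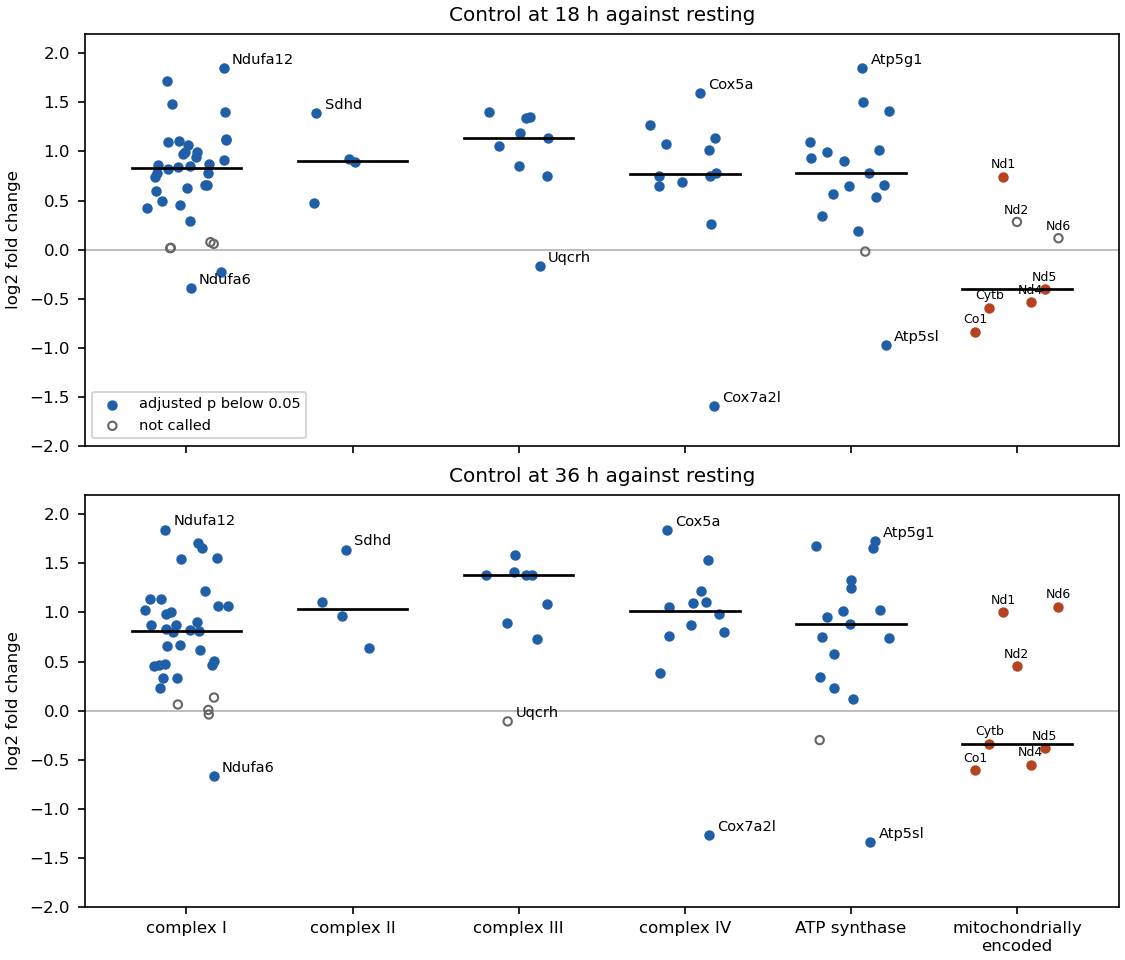
Log2 fold change of each member in control libraries at 18 h (top) and 36 h (bottom) against resting, by complex; 1 point per gene, filled where the adjusted p is below 0.05, with a bar at the median of the points. The 7 well-counted mitochondrially encoded genes are labelled without their mt- prefix; genes with a handful of counts (mt-Co2, mt-Co3, mt-Atp6, mt-Atp8, Cox7a1 and Cox6b2) are left out.

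Complex I, the NADH dehydrogenase, had 30 of its 36 nuclear members higher and 2 lower at 18 h; the median log2 fold change was 0.83. Ndufa12, an accessory subunit, rose most: it stood at 13.8, 15.2 and 15.02 CPM in resting libraries, 49.1, 54.4 and 54.6 at 18 h and 50.6, 54.0 and 53.7 at 36 h. Every one of the 29 cultured libraries lay above the resting ones, and the log2 fold change at 18 h was 1.85 (SE 0.06, adjusted p = 1.31e-30). Ndufb6, an accessory subunit of the membrane arm, had a log2 fold change of 1.72 (SE 0.08, adjusted p = 2.98e-22), though 31.6% of its 50-base words also occur in Smim27, a gene that overlaps it. Ndufab1, the mitochondrial acyl carrier protein, had 1.48 (SE 0.06, adjusted p = 6.62e-29). For Ndufa12, 17.7% of the 50-base words are shared with the annotated gene Gm15920. Among members named below, the share in other annotated genes was 28.5% for Ndufa13, 17.9% for Ndufs3, 17.6% for Uqcrc2 and 17.5% for Ndufb11.

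Other members of complex I fell or did not pass the test. Ndufa6, an accessory subunit that binds the acyl carrier protein, went down from 48.8, 48.5 and 45.8 CPM at rest to 33.5, 37.1 and 38.2 at 18 h and 30.3, 29.4 and 30.6 at 36 h. Here too no cultured library reached the resting range, and the log2 fold changes were -0.40 (SE 0.05, adjusted p = 7.66e-09) and -0.67 (SE 0.05, adjusted p = 1.13e-15). Ndufv3, a small subunit of the NADH-binding module, was lower at 18 h (log2 -0.23, adjusted p = 6.13e-04), and at 36 h its log2 difference from rest was 0.01 (adjusted p = 0.916). Ndufb11, Ndufa13, Ndufa3 and Ndufb10 had log2 fold changes between 0.01 and 0.08 at 18 h and did not pass the test.

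All 4 genes of complex II, succinate dehydrogenase, were higher at both times. Sdhd, a membrane anchor, stood at 42.3, 43.8 and 43.3 CPM at rest and at 109, 115 and 116 CPM at 18 h, which gave a log2 difference of 1.39 (SE 0.04, adjusted p = 3.82e-32). Sdha, the flavoprotein, changed least of the 4, by 0.48 at 18 h (SE 0.04, adjusted p = 2.14e-16). Sdhb, the iron-sulfur protein, and Sdhc, the other anchor, lay between them at 0.89 and 0.92. The resting and control libraries did not overlap for any of the 4 at 18 h, where 80.9% of all genes tested were called in either direction. The share of all genes without overlap is not given here.

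In complex III, 8 of 9 members were higher and 1 lower at 18 h, and the median log2 fold change of 1.14 was the highest of the 5 groups. Uqcrq, a small subunit, had 1.41 (SE 0.07, adjusted p = 9.03e-20). Cyc1, cytochrome c1, which hands electrons on to cytochrome c, went from 59.4, 59.9 and 58.7 CPM to 148, 149 and 159 (log2 1.36, SE 0.05, adjusted p = 1.03e-27). Uqcrh, the hinge protein, was the exception. It had the second highest TPM of all nuclear members at rest (536 ± 30.5, SD, n = 3), and its CPM was 116, 109 and 99.8 at rest and 90.4, 99.3 and 99.7 at 18 h. The lowest resting library stood just above the highest at 18 h; the log2 fold change was -0.17 (SE 0.06, adjusted p = 0.00681) at 18 h and -0.11 (adjusted p = 0.059) at 36 h.

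Complex IV, cytochrome c oxidase, had 11 of 14 tested members higher and 1 lower at 18 h, and 13 higher and 1 lower at 36 h. Cox5a, which is part of the complex in all tissues, stood at 43.6, 41.4 and 41.9 CPM at rest, 127, 128 and 128 at 18 h and 156, 144 and 154 at 36 h. All cultured libraries lay above the resting ones, with log2 fold changes of 1.60 (SE 0.05, adjusted p = 7.56e-30) and 1.84 (SE 0.05, adjusted p = 9.69e-33). Cox4i1, the regulatory subunit, changed by only 0.26 at 18 h.

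Cox7a2l ran the other way. Its product, related to the Cox7a subunits, is known as a factor that joins complexes III and IV into supercomplexes. Cox7a2l stood at 197, 182 and 186 CPM at rest, 60.3, 60.1 and 67.0 at 18 h and 82.1, 74.3 and 77.9 at 36 h. Across the 29 cultured libraries it ranged from 55.3 to 86.0 CPM, all below rest; the log2 fold changes were -1.59 (SE 0.05, adjusted p = 2.28e-33) and -1.27 (SE 0.04, adjusted p = 4.27e-30). Cox7a2, the related subunit of complex IV itself, moved oppositely, from 37.1, 34.3 and 29.3 CPM at rest to 78.6, 85.1 and 80.1 at 18 h (log2 1.27, SE 0.07, adjusted p = 3.26e-16). In TPM, which is scaled per length, Cox7a2l made up 73.7% ± 1.58 of the summed Cox7a family at rest and 27.7% ± 1.52 at 18 h, and Cox7a2 26.2% ± 1.71 and 72.1% ± 1.51 (SD, n = 3). For Cox7a2l, 17.8% of the 50-base words are shared with the annotated gene Gm6969.

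Isoforms of complex IV known from other tissues, such as muscle, heart or testis, stayed near zero. Cox4i2, Cox6a2, Cox7b2, Cox8b and Cox8c had at most 2 counts in any library. Cox7a1, the heart and muscle form, was at 0.07, 0.00 and 0.16 CPM at rest and 0.32, 0.27 and 0.41 at 36 h. Its call at 36 h (adjusted p = 0.014) rests on levels below 1 CPM, as does that of Cox6b2, the testis form, at 0.41, 0.55 and 0.31 CPM at rest and 0.79, 0.90 and 0.90 at 36 h (adjusted p = 0.0109). Both are counted above among the members of complex IV that were higher.

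Among the 17 genes with ATP synthase symbols, 15 were higher and 1 lower at both times. Atp5b, the catalytic beta subunit and the nuclear member with the highest TPM at rest (703 ± 14.0, SD, n = 3), went from 492, 494 and 473 CPM to 1356, 1387 and 1405 at 18 h and 1596, 1493 and 1575 at 36 h. Its log2 fold changes were 1.51 (SE 0.04, adjusted p = 4.38e-37) and 1.68 (SE 0.04, adjusted p = 3.84e-39). Atp5sl, the exception, is the assembly factor named Dmac2. It fell from 41.7, 40.6 and 40.8 CPM to 21.4, 21.3 and 20.1 at 18 h and 17.02, 15.1 and 16.6 at 36 h, with log2 fold changes of -0.97 (SE 0.07, adjusted p = 1.12e-18) and -1.34 (SE 0.07, adjusted p = 4.71e-24).

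Subunit c of the ATP synthase rotor is made from 3 genes, Atp5g1, Atp5g2 and Atp5g3, whose products differ only in the import signal that is cut off. Atp5g1 stood at 38.8, 30.8 and 31.6 CPM at rest and 121, 122 and 121 at 18 h, which gave a log2 difference of 1.85 (SE 0.05, adjusted p = 4.14e-34). Atp5g3 rose by 1.41 (SE 0.05, adjusted p = 1.38e-24) and Atp5g2 by 0.54 (SE 0.06, adjusted p = 2.41e-11). In summed TPM of the 3 genes, Atp5g1 made up 20.7% ± 2.28 at rest and 30.6% ± 0.339 at 18 h, Atp5g2 29.5% ± 2.09 and 16.9% ± 0.821, and Atp5g3 49.8% ± 3.63 and 52.5% ± 0.652 (SD, n = 3). Of the 50-base words of Atp5g2, 38.3% also occur in other annotated genes.

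Between 18 h and 36 h the differences in control cells were smaller. Of the 80 nuclear members, 31 were higher and 9 lower at 36 h, against 25.6% and 26.6% of all genes tested, and the median log2 fold change was 0.05. Complex IV had 10 of 14 higher and none lower, and complex I 9 higher and 6 lower. Uqcr10 (complex III, log2 0.45) and Ndufc1 (complex I, log2 0.41) rose further. Ndufb7 (complex I, log2 -0.33) and Atp5sl (log2 -0.37) were lower at 36 h than at 18 h, and Cox7a2l (log2 0.32) regained part of its difference from rest.

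The mitochondrially encoded mRNAs did not move as a block. At 18 h, 1 of the 7 well-counted genes was higher than at rest and 4 were lower; at 36 h, 3 were higher and 4 lower. Of all genes tested, 40.9% were higher and 40.1% lower at 18 h, and 42.4% and 42.1% at 36 h. mt-Nd1, a core subunit of complex I, stood at 1348, 2168 and 1831 CPM at rest, 2965, 3359 and 2621 at 18 h and 3158, 3949 and 3586 at 36 h. Every cultured library was above the resting ones, and the log2 fold changes were 0.74 (SE 0.16, adjusted p = 2.62e-04) and 1.00 (SE 0.16, adjusted p = 7.02e-06). mt-Co1, the catalytic subunit of complex IV, stood at 9346, 12282 and 11385 CPM at rest, 6068, 6845 and 5583 at 18 h and 6798, 7666 and 7222 at 36 h. No cultured library reached the resting range, and the log2 fold changes were -0.84 (SE 0.13, adjusted p = 2.63e-06) and -0.61 (SE 0.13, adjusted p = 1.34e-04). Without the 6 libraries high in the ribosomal transcript, mt-Nd1 at 18 h had a log2 fold change of 0.57 and no longer passed.

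mt-Cytb, the core of complex III, fell by 0.59 at 18 h on the log2 scale (SE 0.12, adjusted p = 1.22e-04), from 3359, 4222 and 4073 CPM to 2515, 2904 and 2307. mt-Nd4 fell by 0.54 (SE 0.13, adjusted p = 6.09e-04) and mt-Nd5 by 0.40 (SE 0.16, adjusted p = 0.0222); both are complex I subunits. mt-Nd2, also of complex I, had a log2 fold change of 0.28 at 18 h (adjusted p = 0.155) and 0.45 at 36 h (adjusted p = 0.0255). Resting replicate 1 had less of all 7 than the other resting libraries. The weakest of these calls were lost when 1 library was left out. This held for mt-Nd5 at 18 h without resting replicate 2 (-0.30) or control 18 h replicate 1 or 3 (-0.38 and -0.33), and at 36 h without resting replicate 2 or 3 or control replicate 1 or 3 (-0.27 to -0.38). mt-Cytb at 36 h was lost without resting replicate 2 or control replicate 1 (-0.28 and -0.27), and mt-Nd2 at 36 h without resting replicate 1 or control replicate 2 (0.26 and 0.32).

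mt-Nd6, the only one of the 13 genes encoded on the other strand of the mitochondrial genome, changed late. It stood at 49.1, 82.3 and 90.9 CPM at rest and 76.4, 91.1 and 73.0 at 18 h, where the groups overlapped (log2 0.12, adjusted p = 0.655). At 36 h it stood at 132, 189 and 141 CPM, above both earlier groups, with log2 differences of 1.06 from rest (SE 0.22, adjusted p = 1.40e-04) and 0.94 from 18 h (SE 0.21, adjusted p = 7.36e-04). The library kit does not mark strand, so reads from mt-Nd6 and from the transcript opposite it cannot be told apart. Among the poorly counted genes, mt-Atp6 was called lower at 18 h and higher at 36 h than at 18 h on at most 29 counts, and no level is read from it.

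Within the 7 genes the mix of mRNAs differed between rest and culture. mt-Co1 made up 43.0% ± 0.936 of their summed TPM at rest, 29.98% ± 0.341 at 18 h and 30.2% ± 1.02 at 36 h, and mt-Nd1 12.1% ± 0.983, 25.5% ± 0.407 and 26.1% ± 0.492 (SD, n = 3). The TPM ratio of mt-Nd1 to mt-Co1 was 0.252, 0.310 and 0.283 in the resting libraries. It lay between 0.821 and 1.00 in all 29 cultured libraries, with or without an agonist, so the ranges were far apart. On the mitochondrial genome mt-Nd1 (chrM:2751-3707) and mt-Nd2 (chrM:3914-4951) follow directly on the ribosomal RNA genes mt-Rnr1 and mt-Rnr2, and mt-Co1 (chrM:5328-6872) comes after them. The ribosomal RNA genes themselves had log2 fold changes at 18 h of 0.28 (mt-Rnr1, adjusted p = 0.0651) and -0.39 (mt-Rnr2, adjusted p = 0.0253).

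**Figure D3:**
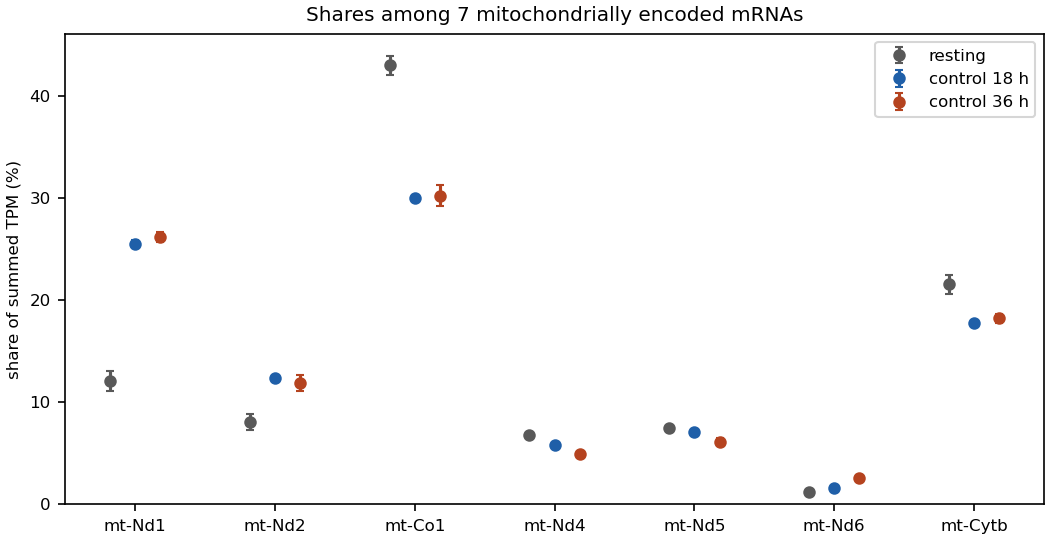
Share of each of the 7 well-counted mitochondrially encoded mRNAs in their summed TPM, as mean and SD of 3 libraries, in resting cells and in controls at 18 h and 36 h, in the order of the mitochondrial genome. The share of mt-Co1 goes from 43.0% to 29.98% and that of mt-Nd1 from 12.1% to 25.5%, while 18 h and 36 h lie close together.

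Summed over members, the nuclear and mitochondrial parts went in different directions. Nuclear members summed to 12975, 12867 and 12771 TPM at rest. The control libraries lay between 20538 and 21094 TPM at 18 h, and between 21440 and 22372 TPM at 36 h. Mitochondrially encoded members summed to 28377, 38999 and 36172 TPM at rest, 25259, 27481 and 22462 at 18 h and 26420, 32181 and 28856 at 36 h. The nuclear sums of rest and culture were far apart, whereas the mitochondrial sums of rest and 36 h overlapped and were more spread within each group. The log2 ratio of nuclear to mitochondrial TPM was -1.13, -1.60 and -1.50 at rest and -0.28, -0.42 and -0.09 at 18 h, a difference of the means of 1.15 with a pooled SD of 0.21. At 36 h it was -0.24, -0.59 and -0.38, a difference from rest of 1.01. TPM values are shares of a fixed total, and 6 mitochondrial genes are almost missing from the sum, so the ratio is comparable between libraries but is no ratio of molecules.

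**Figure D4:**
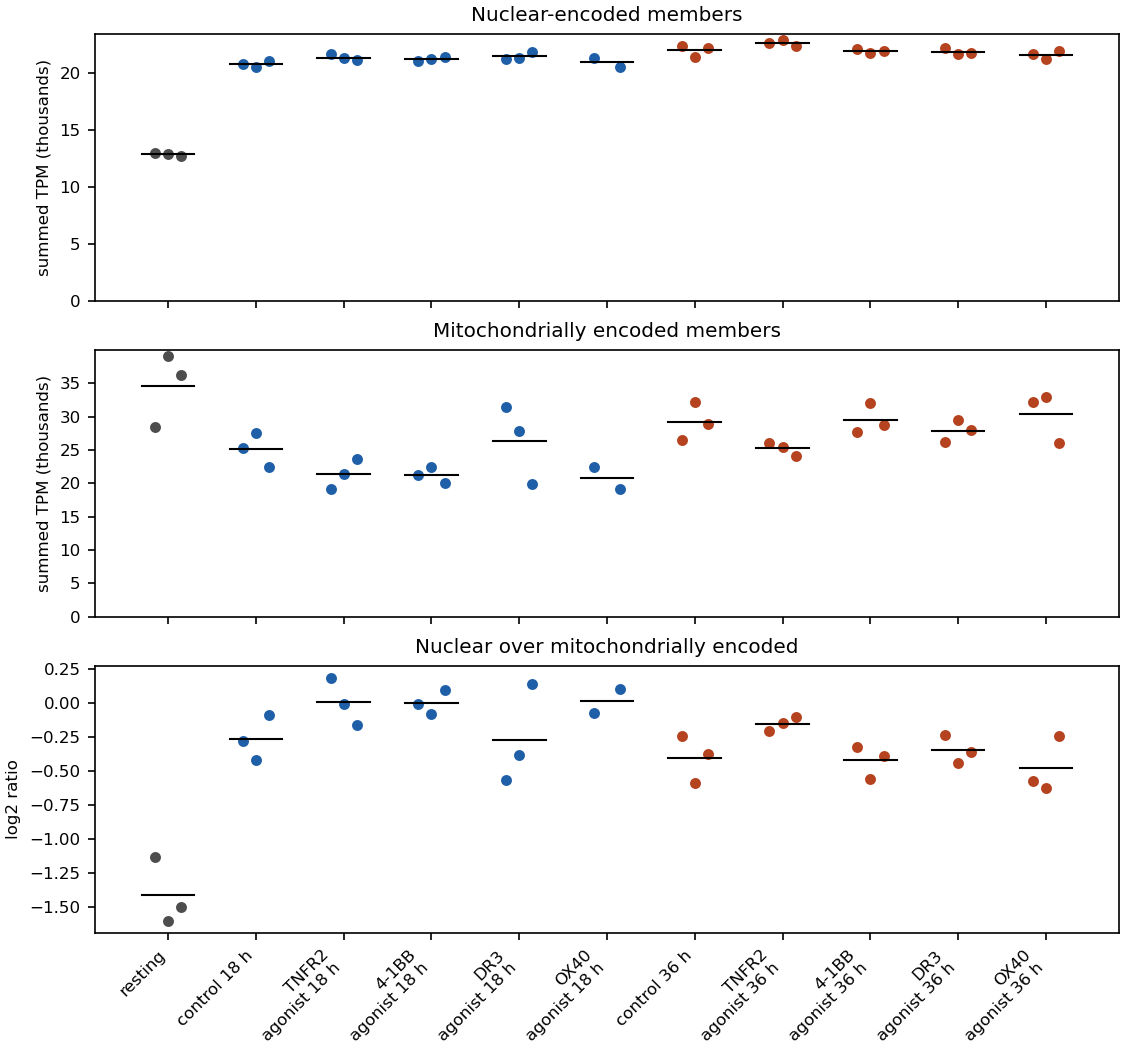
Summed TPM of the 86 nuclear members (top) and the 13 mitochondrially encoded members (middle), and the log2 ratio of the sums (bottom), with 1 point per library and a line at the group mean. The 3 resting libraries have the lowest nuclear sums and the lowest ratios of all 32.

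The agonists were each compared with the control of the same time; comparisons at a time share their 3 control libraries and are not independent. Summed B-cell markers at 18 h, at 300 to 323 CPM in control libraries, were at 373 to 401 with the TNFR2 agonist, 414 to 431 with the 4-1BB agonist, 328 to 343 with the DR3 agonist and 346 to 356 with the OX40 agonist. Markers of cytotoxic lymphocytes (NK cells, CD8 and gamma-delta T cells) summed to 14.4 to 15.1 CPM in those controls and 19.2 to 25.7 with the agonists. Of this list Klrb1c, Ncr1, Klra8 and Klre1 were at 0 in those controls and with the TNFR2, 4-1BB and OX40 agonists. With the TNFR2 agonist Klrc1 was at 0 too, and with the DR3 agonist Ncr1 and Klre1 were at 0. The B-cell and cytotoxic lists were thus above control in every agonist library at 18 h. Regulatory T cell markers summed to 8097 to 8205 CPM in those controls. They were at 7469 to 7788 with the TNFR2 agonist and 7457 to 7681 with the 4-1BB agonist. The DR3 agonist had 7791 to 8002 and the OX40 agonist 7710 to 8145. Myeloid and dendritic markers summed to 33.9 to 36.4 CPM in those controls. They were at 37.8 to 41.1 with the TNFR2 agonist and 33.2 to 37.7 with the 4-1BB agonist. The DR3 agonist had 37.9 to 43.5 and the OX40 agonist 36.5 to 39.3. At 36 h the cytotoxic list summed to 36.6 to 37.7 CPM in controls. It was at 38.4 to 40.0 with the TNFR2 agonist and 29.9 to 32.8 with the 4-1BB agonist. The DR3 agonist had 28.4 to 29.5 and the OX40 agonist 35.0 to 39.1. B-cell markers then stood at 272 to 286 CPM in controls and 265 to 305 with the agonists. Regulatory T cell markers were at 6686 to 6801 and 6230 to 6630, in that order. Myeloid and dendritic ones were at 30.2 to 33.6 and 32.1 to 37.7. What any of these lists contributed to the results was not tested. Effects on respiratory genes were small. At 18 h with the TNFR2 agonist, 23 of 80 nuclear members (28.8%) were higher and none lower, against 15.8% and 15.3% of all genes, with a median log2 fold change of 0.08. With the 4-1BB agonist 11 were higher and none lower (12.7% and 13.1% of all genes), with the DR3 agonist 16 and 1 (9.66% and 9.94%) and with the OX40 agonist 8 and none (9.32% and 9.71%). Among the called nuclear members at either time, log2 fold changes lay between -0.21 and 0.36. Without the 6 libraries high in the ribosomal transcript, which leaves 1 control library at 18 h that is assumed to vary like the other groups, a single nuclear member was called with each of the 4 agonists, with OX40 a lower one. Without only the 5 above 11000 CPM, a limit chosen after seeing the data, 4, 9, 11 and 5 were called in the same order of agonists. Without control replicate 1 the counts were 12, 4, 9 and 2. They were 7 without TNFR2 replicate 1, 6 without 4-1BB replicate 1 and 8 without DR3 replicate 3. They were 11 for DR3 without control replicate 2, and 4 or 1 without OX40 replicate 1 or 2. Counts from such refits, here and below, have no share of all genes beside them. A loss particular to these members therefore cannot be told from a general loss of calls.

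At 36 h, 19 nuclear members were higher and none lower with the TNFR2 agonist (13% and 11.9% of all genes), 4 and none with the 4-1BB agonist (10.9% and 11.5%), and 4 and 1 with the DR3 agonist (6.97% and 6.39%). With the OX40 agonist none was called by edgeR (7.12% and 6.21% of all genes), 1 by DESeq2 and 7 at an unadjusted p below 0.05; without control replicate 1 edgeR called 3. Without control replicate 2 the TNFR2, 4-1BB and DR3 counts were 5, none and 1, and without TNFR2 replicate 2 the TNFR2 count was 7. The 4-1BB count was 2 or 1 without any 1 of its own libraries, or without control replicate 3 or single libraries of other groups, which share the estimate of the spread. The DR3 count was none without its replicate 1 or 2, and 3 without its replicate 3 or control replicate 1. None of the 11 tested mitochondrially encoded genes was called by edgeR with any agonist at either time. At an unadjusted p below 0.05, between 0 and 2 were, and DESeq2 called 1 with the DR3 and 1 with the OX40 agonist at 18 h.

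Cyc1 was called higher in 6 of the 8 comparisons, though the share of all genes called that often is not given here. It stood at 148, 149 and 159 CPM in controls at 18 h and at 202, 199 and 179 with the TNFR2 agonist, 169, 168 and 173 with the 4-1BB agonist, 175, 182 and 190 with the DR3 agonist and 165 and 153 with the OX40 agonist. All libraries of the first 3 agonists were above the controls, whereas the OX40 libraries overlapped them. The log2 fold changes were 0.35 (SE 0.05, adjusted p = 1.89e-08), 0.16 (adjusted p = 0.00595), 0.26 (adjusted p = 1.52e-05) and 0.06 (adjusted p = 0.414). At 36 h the control libraries stood at 161, 145 and 156 CPM and those with the TNFR2 agonist at 178, 191 and 172, a log2 fold change of 0.23 (SE 0.04, adjusted p = 9.31e-05). The joint test found that the 4 agonists differed in Cyc1 at 18 h (adjusted p = 1.32e-04). The TNFR2 call held at both times without any 1 library and without the 6. The DR3 and 4-1BB calls at 18 h were lost without the 6, and the 4-1BB call also without control replicate 1. The calls at 36 h with the 4-1BB and DR3 agonists (log2 0.12 and 0.14) were lost without control replicate 2 or 3.

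Atp5b was also called higher in 6 comparisons, with log2 fold changes of at most 0.16. It stood at 1356, 1387 and 1405 CPM in controls at 18 h and at 1576, 1593 and 1460 with the TNFR2 agonist (log2 0.16, SE 0.03, adjusted p = 3.18e-04), with no overlap. None of its 4 calls at 18 h held without the 6 libraries, and its TNFR2 call at 36 h (log2 0.13) was lost without control replicate 2. Cox5a was called higher with all 4 agonists at 18 h (log2 0.14 to 0.19). Without the 6 libraries its calls with the TNFR2, 4-1BB and OX40 agonists were lost. The OX40 call was also lost without OX40 replicate 2. Ndufa2, a small subunit of complex I, had the highest log2 fold change among the called nuclear members of the 8 comparisons, with the TNFR2 agonist at 36 h. It stood at 30.7, 28.8 and 31.8 CPM in controls of that time and at 37.3, 44.1 and 35.7 with the agonist, a log2 fold change of 0.36 (SE 0.08, adjusted p = 0.00162). The call held without any 1 library and without the 6. The members called lower were Ndufb3 at 18 h (log2 -0.21, adjusted p = 0.00823) and Ndufs3 at 36 h (log2 -0.13, adjusted p = 0.0303), both of complex I and both with the DR3 agonist. Without the 6 libraries no member was called lower with the DR3 agonist at 18 h. The Ndufs3 call was lost without control replicate 1 or 3 or DR3 replicate 1 or 2.

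**Figure D5:**
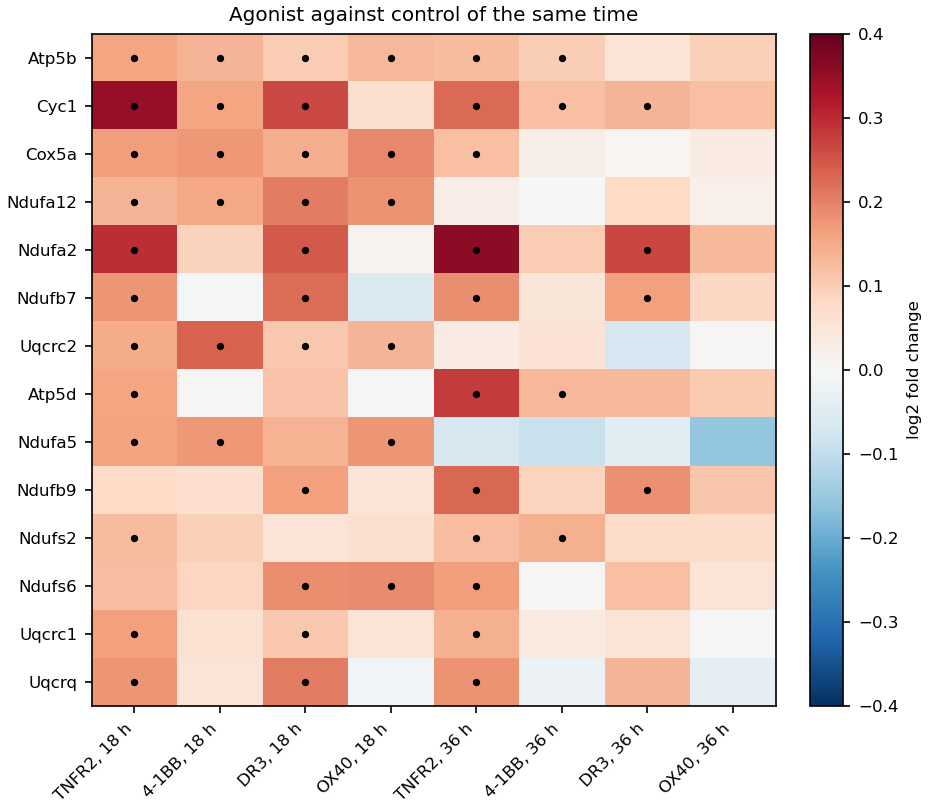
Log2 fold change of each agonist against the control of the same time for the 14 members called in at least 3 of the 8 comparisons; a dot marks an adjusted p below 0.05. The comparisons at a time share control libraries, and no value exceeds 0.36. The share of all genes called in at least 3 comparisons is not given here, so the 14 cannot be set against it.

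Where the 4 agonists were compared with each other, the joint test called 9 of 80 nuclear members at 18 h (11.25%) and 6 at 36 h (7.5%). Of all genes tested, 14.3% and 9.06% were called, so the members were not called more often than genes in general. Besides Cyc1, Ndufb7 of complex I had the smallest p at 18 h (adjusted p = 3.14e-04). At 36 h it was Ndufa11, a complex I subunit, which was lower with the 4-1BB agonist than with the TNFR2 agonist by 0.31 on the log2 scale (adjusted p = 0.0014). Counts of 3 nuclear members at 18 h and 2 at 36 h were left without the 6 libraries. Between 18 h and 36 h the effect of an agonist differed, by the interaction test, in no nuclear member with the TNFR2 agonist (6.69% of all genes tested), 2 with the 4-1BB agonist (4.37%), 1 with the DR3 agonist (2.31%) and 1 with the OX40 agonist (3.48%). For TNFR2, 5 passed at an unadjusted p below 0.05 and none by DESeq2. In the joint tests the only mitochondrially encoded gene was mt-Nd6 at 18 h, at 130, 130 and 81.7 CPM with the DR3 agonist and 86.9, 54.8 and 79.0 with the TNFR2 agonist (joint adjusted p = 0.0071).

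The log2 ratio of nuclear to mitochondrial TPM with the agonists differed from control by between -0.08 and 0.28. At 18 h the differences were 0.27 with the TNFR2 agonist, 0.26 with the 4-1BB agonist, -0.01 with the DR3 agonist and 0.28 with the OX40 agonist, and the pooled SDs were between 0.13 and 0.28. Without the 6 libraries those of TNFR2, 4-1BB and OX40 were 0.006, 0.09 and 0.11. At 36 h the difference was 0.25 with the TNFR2 agonist (pooled SD 0.13), whose libraries did not overlap the controls, and 0.15 without control replicate 2. It was -0.02, 0.06 and -0.08 with the 4-1BB, DR3 and OX40 agonists, whose libraries overlapped the controls. The DR3 libraries at 18 h were spread widely, with mitochondrial sums of 31481, 27838 and 19870 TPM.

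Genes that serve the respiratory chain were also more often higher than lower. The counts at 18 h are read against 40.9% higher and 40.1% lower among all genes tested. Of 48 assembly factors, which help build the complexes, 35 were higher and 8 lower at 18 h (median log2 fold change 0.63). Ndufaf4, a complex I assembly factor, went from 17.8 ± 2.25 to 65.1 ± 2.03 CPM (SD, n = 3; log2 1.86, adjusted p = 9.66e-28). Of 18 genes of the tricarboxylic acid cycle, which feeds electrons to the chain, 17 were higher and none lower (median 0.84), Idh3a among them (log2 1.76, adjusted p = 5.39e-37). Of 22 tested electron carriers, adenine nucleotide carriers and uncoupling genes, 18 were higher and 4 lower. Cycs, cytochrome c itself, went from 22.1 ± 1.25 to 114 ± 7.75 CPM (SD, n = 3; log2 2.36, adjusted p = 6.32e-37), and Ucp2, an inner-membrane carrier named for uncoupling, from 895 ± 41.4 to 493 ± 11.2 (SD, n = 3; log2 -0.86, adjusted p = 1.75e-26).

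Genes that copy mitochondrial DNA and handle its RNA were counted as well, again beside 40.9% higher and 40.1% lower among all genes tested. Of 18 genes for mitochondrial DNA replication and transcription, 10 were higher and 3 lower at 18 h. Tfam, which packs mitochondrial DNA and starts its transcription, had a log2 fold change of 0.65 (SE 0.05, adjusted p = 2.09e-18). Of 16 genes for processing and stability of mitochondrial RNA, 15 were higher and none lower, with a median of 1.09. Lrpprc, which stabilises mitochondrial mRNAs, went from 67.5 ± 2.07 to 230 ± 3.12 CPM (SD, n = 3; log2 1.77, adjusted p = 1.10e-35). Elac2, the nuclease that trims tRNA 3' ends from the precursors, had 1.36 (adjusted p = 2.64e-29). Of 12 tested nuclear regulators of respiratory genes, 7 were higher and 3 lower. Myc, a transcription factor of growth, led with a log2 fold change of 2.38 (adjusted p = 7.63e-45), followed by Pprc1, a coactivator of the PGC-1 family (1.89, adjusted p = 7.73e-39).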

How the data were processed

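RNA-seq was read from the authors' 32 deposited gene tables. The kits were NucleoSpin RNA XS for extraction and SMART-Seq v4, which does not mark strand, for cDNA, per the labels' protocols. As genome and tools, the submitters' processing notes list mm10, RSEM 1.2.28, STAR 2.5.3a, Trimmomatic and FastQC, without their settings or order. Annotation release, strand setting and treatment of multi-mapping reads: not given in the sources used here. Deposited expected counts are RSEM's estimated reads per gene, and the deposited TPM values are scaled per length to a fixed sum.

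Expected counts were rounded and tested with edgeR 4.0.16 (R 4.3.3): filterByExpr by group (14313 genes kept), TMM scaling, 1 mean per group over all 32 libraries, robust quasi-likelihood F tests and Benjamini-Hochberg adjustment over all genes tested, called below 0.05. Every adjusted p comes from this fit. CPM uses TMM-adjusted library totals. Levels between genes are compared in TPM. In simulated counts for control 18 h against resting (13529 genes), 68% of changes of 1.2-fold and 96% of changes of 1.5-fold were recovered, with 3 false calls. The simulation gave all genes the same dispersion and changed 50 well-counted genes per fold size, far fewer than were called in the data. Its figures do not carry over to genes with a larger spread, such as the mitochondrially encoded ones. The smallest library held 11880272 counts, which limits the precision of genes below 1 CPM.

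The members and gene lists were chosen with earlier results of these data known. For each complex and activation contrast the called members with the largest and smallest changes at 5 CPM or more were named, with all mitochondrially encoded genes, all isoform families, the 4 smallest p per agonist test, members called in at least 6 of 8 agonist comparisons, and up to 4 genes per list. Prorp and Fastkd4 were not matched in the lists. Ndufab1, Ndufa3, Ndufa13, Ndufb3, Ndufb10 and Ndufb11 were singled out after their values were seen, as were the promoters and sequences shown. DESeq2 1.42.0, RLE scaling, other filters, library totals without mitochondrial genes, a covariate for the ribosomal transcript, a replicate block and leaving out libraries were the alternatives.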

Additional observations from a re-analysis of the deposited data

Results flagged for a closer look

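In 4 cases the effect of an agonist on a nuclear member differed between 18 h and 36 h by edgeR's interaction test, out of 80 members tested for each agonist; the TNFR2 agonist had no such member by edgeR or DESeq2, and 5 at an unadjusted p below 0.05. All genes called in these tests came to 4.37% with the 4-1BB agonist, 2.31% with the DR3 agonist, 3.48% with the OX40 agonist and 6.69% with the TNFR2 agonist. Uqcrc2, a core subunit of complex III, stood at 183, 192 and 195 CPM in controls and 224, 221 and 227 with the 4-1BB agonist at 18 h, and at 203, 191 and 195 and 211, 204 and 198 at 36 h. The groups were apart at 18 h and overlapped at 36 h. The difference of the effects was -0.18 on the log2 scale (SE 0.05, adjusted p = 0.0214). For Uqcrc2 with the DR3 agonist the difference was -0.175 (SE 0.05, adjusted p = 0.0414).

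Ndufa5, a complex I subunit, stood at 30.4, 32.7 and 33.4 CPM in controls, 38.9, 34.8 and 35.4 with the 4-1BB agonist and 35.5 and 37.3 with the OX40 agonist at 18 h. At 36 h it stood at 31.2, 33.9 and 34.1 in controls, 32.05, 30.2 and 31.2 with the 4-1BB agonist and 29.6, 29.3 and 30.3 with the OX40 agonist. It was above control at 18 h and level with or below it at 36 h. The difference of the effects was -0.26 with the 4-1BB agonist (SE 0.08, adjusted p = 0.0407) and -0.33 with the OX40 agonist (SE 0.08, adjusted p = 0.0135). The comparisons share their control libraries. None of the 4 calls held without the 6 libraries high in the ribosomal RNA transcript, and none without control 18 h replicate 1. Of 32 fits leaving out 1 library, the call was lost in 8 (Ndufa5 with 4-1BB), 2 (Ndufa5 with OX40), 5 (Uqcrc2 with 4-1BB) and 12 (Uqcrc2 with DR3).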

How the results depend on the processing

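The activation counts of nuclear members stayed within 1.5 times of their reported value under every alternative run, including DESeq2, RLE scaling and library totals without mitochondrial genes. Leaving out 1 library gave 72 to 73 at 18 h, 73 to 76 at 36 h and 34 to 43 for 36 h against 18 h. A stricter filter (5 CPM in 3 libraries) lowered all log2 fold changes against rest by a median of 0.12. Mitochondrially encoded genes called at 36 h against 18 h went from 2 to 1 with the stricter filter, without the 6 libraries above 10000 CPM of the ribosomal transcript, and with only the groups compared; leaving out 1 library gave 1 to 3, and for 18 h and 36 h against rest 4 to 9 and 5 to 7.

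Agonist results depended on the libraries. Without the 6 libraries, nuclear counts at 18 h were 1 with each agonist (for OX40, 8 higher and 0 lower became 0 and 1), and at 36 h 1 (4-1BB) and 3 (DR3); interaction counts were 0 for 4-1BB, DR3 and OX40, joint counts 3 and 2, and 1 mitochondrial gene each was called for 4-1BB and DR3 at 36 h. The log2 ratio was then -0.31 for 36 h against 18 h, and 0.0058, 0.092 and 0.106 for TNFR2, 4-1BB and OX40 at 18 h; for DR3 at 18 h (-0.01) it ran from -0.21 to 0.14 on leaving out 1 library. Without the 5 above 11000 CPM, chosen after seeing the data, nuclear counts were 4 (TNFR2), 11 (DR3) and 5 (OX40) at 18 h and 2 (4-1BB) and 3 (DR3) at 36 h, interaction counts were 0 and joint counts 3 and 3. With the ribosomal covariate, they were 11 (TNFR2), 2 (4-1BB) and 2 (DR3) at 36 h, 1 and 0 for the 4-1BB and OX40 interactions, 5 for the joint test at 18 h, and 1 mitochondrial gene for DR3 at 18 h. With only the groups compared, nuclear counts at 18 h were 20 (4-1BB) and 5 (OX40), the DR3 interaction 2 and the joint tests 3 and 13; mitochondrial counts were 2 (TNFR2) at each time, 1 (DR3, 36 h), and 0 and 1 in the joint tests. With DESeq2, nuclear counts were 2 (4-1BB, 36 h), 1 (OX40, 36 h) and 1 (4-1BB interaction), and mitochondrial counts 1 (DR3 and OX40, 18 h). With no filter they were 1 and 0 for the 4-1BB and DR3 interactions and 11 for the joint test at 36 h, with mitochondrial counts of 1 for DR3 at 18 h, 4-1BB and DR3 at 36 h and the joint test at 36 h. For OX40 at 36 h the stricter filter and totals without mitochondrial genes gave 1, and such totals gave 2 for 4-1BB at 36 h.

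Leaving out 1 library at a time, nuclear counts at 18 h ranged over 7 to 29 (TNFR2), 4 to 11 (4-1BB), 8 to 20 (DR3) and 1 to 9 (OX40), and at 36 h over 5 to 21, 0 to 5, 0 to 6 and 0 to 3. Interaction counts ranged over 0 to 1, 0 to 3, 0 to 1 and 0 to 1, and joint counts over 3 to 16 and 1 to 10. Mitochondrial counts ranged over 0 to 2 (DR3, 18 h), 0 to 1 (4-1BB and DR3, 36 h) and 0 to 5 (joint test, 18 h).

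Whether same-numbered replicates were paired is not given by the labels. Correlations of same-numbered deviations over 7114 genes ran from -0.36 to 0.41, and in no comparison were all above 0.1. For 36 h control against resting they were 0.14, 0.41 and 0.09. Correlations of deviations from the means of so few libraries cannot exclude pairing. With a replicate block no count moved by over 1.5 times (for 18 h against rest, 73 nuclear members were called), and 2 of 209 calls of named genes were lost.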
